A study of Homo sapiens with 9 samples.

Results

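Hi-C counts how often 2 stretches of DNA are ligated to each other in the nucleus, and in such maps a chromosome alternates between A stretches, which contact other A stretches, and B stretches, which contact other B stretches. A compartments are as a rule gene-rich, active and in the nuclear interior, and B compartments are gene-poor and often lie at the nuclear lamina. The junction of an A and a B stretch is therefore a place where the contact partners of a chromosome change, and many such places are also insulated, meaning that few contacts cross them. Insulation at many sites depends on the DNA-binding protein CTCF and on the ring-shaped cohesin complex, while compartments are thought to form through affinity between chromatin of one kind. In senescent fibroblasts with an active RAS oncogene, heterochromatin is known to leave the lamina and to gather into foci, which makes the boundary between A and B of interest.

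The edges were found in IMR90, a line of human diploid lung fibroblasts, of passage 20 to 25, infected with ER:HRAS(G12V), an oncogenic RAS fused to the oestrogen receptor. Growing cells received no tamoxifen (3 Hi-C libraries, of which growing replicate 3 also carried an MSCV vector), and RAS-induced senescence (RIS) was set off by 100 nM 4-hydroxytamoxifen (4OHT) for 6 days (2 Hi-C libraries). All 5 libraries thus carried the construct, and the contrast is of treated against untreated infected populations. Nothing in the labels ties the replicates to separate infections, so p-values measure the spread between these libraries.

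The chromosomes 1 to 22 were divided into bins of 120 kb, and the first principal component of the correlation matrix of observed over expected contacts, positive on the gene-dense side (A), was taken in the mean of the 3 growing libraries. Edges were chosen by the sign of this component in growing cells: an edge is a position between a run of at least 5 positive bins (600 kb) and a run of at least 5 negative bins. This gave 569 edges among 22229 positions between neighbouring bins with contacts, out of 2658 changes of sign of any length. The A stretch lay to the right of 274 edges and to the left of 295, all 22 chromosomes held some, from 4 on chromosome 21 to 55 on chromosome 1, and the runs beside an edge had a median length of 1320 kb on the A side and 1200 kb on the B side. The growing libraries chose the edges, so the size of the component's step in growing cells is a description. The median step of the component, A side minus B side over 600 kb each, was 1.55 (replicate 1), 1.51 (replicate 2) and 1.57 (replicate 3) in the growing state, and 1.34 and 1.35 in the RIS state.

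The edges carried features that the component did not use beyond its sign, which follows gene density. Mean GC content ran from 42.3% at 580 kb into the A side to 40.1% at 580 kb into the B side, against 40.9% over all bins, and GC content was higher on the A side of 413 of the 569 edges. Starts of protein-coding genes peaked in the 40 kb next to the edge on the A side, with 0.442 starts per 40 kb, against 0.278 over all bins, and 100 kb into the B side the value was 0.172. Within 600 kb the median edge had 4 gene starts on the A side and 2 on the B side, and 121 B sides had none, against 43 A sides. A protein-coding gene spanned 292 edges (51.3%), against 46.5% of all positions tested. HindIII, the enzyme whose sites set the fragments of these libraries (AAGCTT), had a median of 11.7 sites per 40 kb on the A side and 12.3 on the B side. Its part in the contact values, beyond what balancing removes, was not tested.

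**Figure D1:**
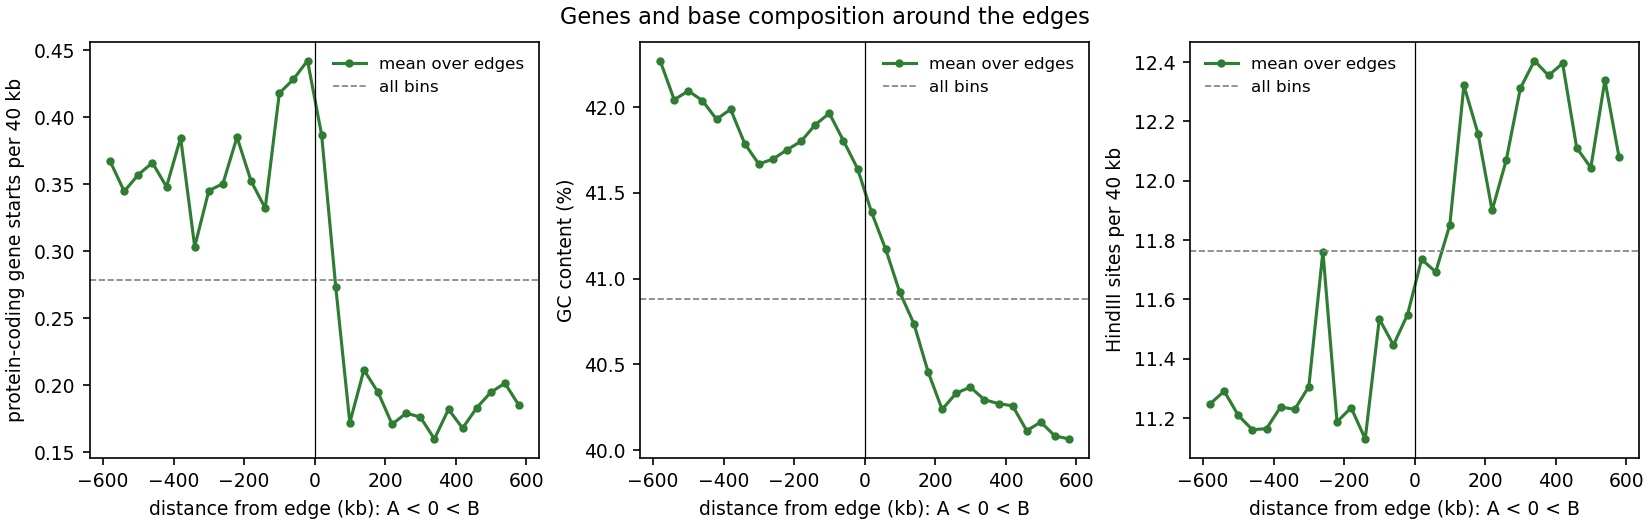
Starts of protein-coding genes, GC content and HindIII sites per 40 kb bin by distance from the edge (A side at negative distances), as means over the 569 edges, with the mean over all bins as a dashed line. Gene starts peak at 0.442 per 40 kb just inside the A side, GC content declines across the edge, and HindIII sites become more frequent on the B side.

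To show sequence at the edges on which the results below turn, the match nearest to the edge of the 9-letter core of the CTCF motif, CCAGGGGGC, was read from the genome on both strands. These letters occurred within 120 kb of 75.04% of the edges and within 120 kb of 69.2% of all positions scored, so a match near an edge is common anywhere and describes the sequence, not a bound site. In the 5 sequences the core is in capitals, the motif strand is written 5′ to 3′, and the coordinates are of hg19.
Edge on chromosome 7 with the largest fall of contact (chr7:66836127-66836175, minus strand, 3.8 kb from the edge on the A side): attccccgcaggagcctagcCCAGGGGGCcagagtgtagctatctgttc
Edge beside KLHL25 (chr15:86474274-86474322, minus strand, 74.3 kb from the edge on the B side): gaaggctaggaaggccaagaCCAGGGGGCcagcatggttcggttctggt
Edge beside PRRX1 (chr1:170778407-170778455, plus strand, 18.4 kb from the edge on the B side): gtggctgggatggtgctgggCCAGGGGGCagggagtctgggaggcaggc
Edge beside MEIS1 (chr2:66596467-66596515, minus strand, 3.5 kb from the edge on the B side): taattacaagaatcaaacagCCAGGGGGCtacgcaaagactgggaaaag
Edge within IRAK3, near HMGA2 (chr12:66659288-66659336, minus strand, 59.3 kb from the edge on the B side): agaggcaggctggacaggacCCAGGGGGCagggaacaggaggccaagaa
Over the edges, the mean number of cores per 40 kb was 0.33 in the bin next to the edge on the A side and 0.367 in that on the B side, against 0.316 over all bins.

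The deposited contact values could be turned back into whole contacts, with totals of 154318992, 175410468 and 180775315 for growing cells (replicates 1 to 3) and of 109967509 and 150689993 for RIS. The 600 kb on both sides of an edge were joined by a median of 2878, 3178 and 3034 such contacts in growing cells and of 1860.5 and 2438 in RIS, with a lowest value of 159, in RIS replicate 1. The share of contacts within a chromosome was 92.4% to 93.0% in growing cells and 90.2% to 90.4% in RIS. This share moves with the condition, and its part in the changes below was not tested.

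Edges were strongly insulated in both states. Contact across an edge, given as log2 of the mean observed over expected contact between the 600 kb on one side and the 600 kb on the other, had a median over edges of -0.998, -0.98 and -0.98 (growing) and of -1.002 and -1.04 (RIS). Over all positions the medians lay between -0.08 and -0.06 in the 5 libraries. The growing libraries that chose the edges cannot serve to test this difference, but both RIS libraries, which had no part in the choice, showed edge values as low as those of growing cells. The insulation score, the log2 mean contact across a position within 520 kb, was not itself used for the choice. In growing cells it comes from the libraries that chose the edges, so the growing share is a description. A local minimum of at least 0.1 in depth lay within 120 kb of 480 of 546 edges scored (87.9%) in growing cells and of 478 (87.5%) in RIS, against 47.7% and 50.7% of all positions. Among all 569 edges, including those not scored for these shares, 469 had a minimum in both states, and of these minima 397 lay in the same 40 kb step in RIS, 42 had moved towards the B side and 30 towards the A side.

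The minima were deeper in RIS. At these 469 edges the median depth of the minimum was 1.56, 1.58 and 1.58 (growing) against 1.64 and 1.65 (RIS). Each RIS library exceeded every growing one. The order was the same over all positions with a minimum, where the median depth was 0.612, 0.614 and 0.616 in growing cells and 0.624 and 0.629 in RIS, so it is not particular to the edges. The averaged score was then read by distance. At the edge itself the mean score, relative to the chromosome's median, was -0.698, -0.697 and -0.700 in growing cells and -0.690 and -0.691 in RIS. At 400 kb into the A side it was 0.177, 0.193 and 0.178 in growing cells and 0.244 and 0.221 in RIS, and at 400 kb into the B side 0.0191, 0.0217 and 0.0313 against 0.0700 and 0.0860. The flanks on both sides thus stood higher in both RIS libraries than in every growing library, while at the edge the RIS libraries were higher too, but the libraries differed by at most 0.01.

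**Figure D2:**
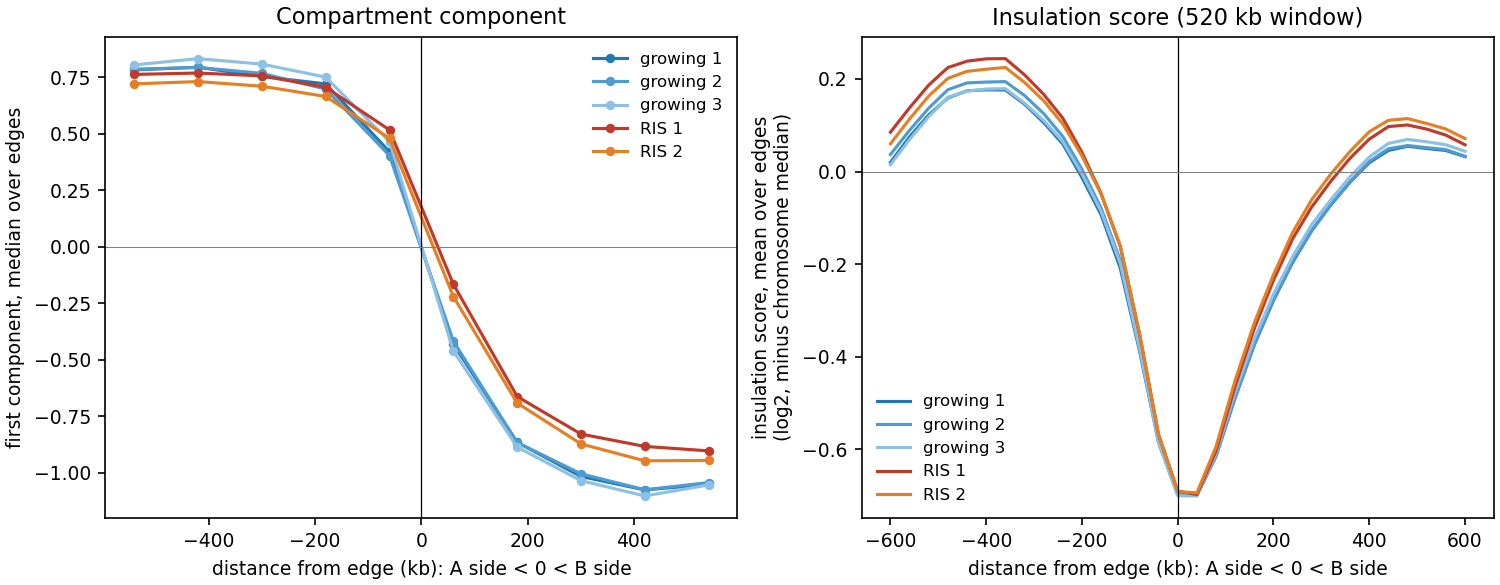
Left, first compartment component (median over 569 edges) in 120 kb bins, and right, insulation score (mean over edges, log2, minus each chromosome's median), by distance from the edge with the A side at negative distances, 1 line per library. RIS replicates 1 and 2 lie above the growing libraries on the B side of the component plot, and further above them on both flanks of the insulation plot than at its minimum, where the libraries differ by at most 0.01.

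To ask whether insulation changed relative to the flanks, an insulation contrast was computed for each position: contact across it minus the mean of the contacts within the 600 kb on either side (lower values mean stronger insulation). Its median over edges was -1.18, -1.14 and -1.14 in growing cells and -1.23 and -1.24 in RIS, against values between 0.007 and 0.03 over all positions. With limma on all 20352 positions and Benjamini-Hochberg adjustment over all of them, 284 of the 538 edges tested (52.8%) passed an adjusted p of 0.05, against a background of 43.9% of all positions. The contrast fell in RIS at 200 edges (37.2%; background 20.3%) and rose at 84 (15.6%; background 23.6%). The median change over edges was -0.07, against 0.02 over all positions, with a range from -1.18 to 0.63. The libraries fall into a class with few duplicate reads in the study's alignment summary (growing replicates 1 and 2, RIS replicate 1) and a class with many (growing replicate 3, RIS replicate 2). Within the class with few the median change was -0.048, and between the 2 libraries with many it was -0.10. Each class holds 1 RIS library, so no test is read from it. For the same reason no share with a RIS library left out is read as a result. Such fits enter only the ranges given further below for 1 library left out. Without the correction for distance the share of edges whose contrast rose was 9.67%, close to the background of 9.70%. Falls stood at 40.9% (background 32.2%). The remaining 31 edges had too few bin pairs kept to be tested.

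The fall in contrast was spread over the genome but not uniform. The median change was below 0 on 18 of the chromosomes and lowest on chromosomes 21 (-0.27, 4 edges), 16 (-0.24, 12 tested edges) and 17 (-0.19, 13 tested edges). On chromosomes 12, 13, 15 and 19 it was above 0, between 0.04 and 0.07, over 22, 20, 16 and 3 tested edges. Edges between long stretches changed more. Where both runs had at least 10 bins, the median change was -0.14 over 164 tested edges, and with runs of at least 3 bins it was -0.03 over 1036. The 138 edges whose shorter run was exactly 5 bins had a median growing contrast of -0.98 and a median change of -0.04, and the 191 positions just outside the rule, with a shorter run of 4 bins, had -0.50 and 0.00. Edges that were more strongly insulated in growing replicate 1 had lower values of change computed from the other 4 libraries: ranked by that contrast in 4 groups of equal size, the medians were -0.18 (lowest contrast), -0.15, -0.08 and 0.04 (highest). Across the 538 edges, which share libraries and neighbours and are not independent, the change had a Pearson correlation of -0.16 with the number of gene starts on the A side, -0.17 with the length of the B run and -0.14 with the step in GC content. The value was -0.08 for the length of the A run and -0.14 for core motifs within 120 kb. For gene starts on the A side the Spearman correlation was -0.26.

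Contact across the edge and contact within each side were then read separately. Contact across passed the test at 304 of 538 edges (56.5%), against 56.9% of all positions. It fell at 190 edges (35.3%; background 29.3%) and rose at 114 (21.2%; background 27.6%), with a median change of -0.03 against 0.00 over all positions. With RIS replicate 1 left out, RIS has 1 library, so the share of edges with a rise is not read. Without the correction for distance rises stood at 5.58% of edges, above the background of 4.09%, and falls at 47.4% (background 46.1%), so the order of edges and background depends on this correction for rises. Both contact across and contrast fell at 166 edges, and at the other 34 edges with a fall in contrast the contact across did not pass the test. Contact across is a part of the contrast, so the 2 measures are not independent.

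Contact within the A side, the stretch of 600 kb next to the edge, rose more often than it fell. Of 552 A sides tested, 243 passed (44.02%), against 53.2% of all windows. It fell at 47 A sides (8.5%; background 27.4%) and rose at 196 (35.5%; background 25.8%), with a median change of 0.04. Its median level was 0.28, 0.29 and 0.28 in growing cells and 0.32 and 0.31 in RIS. Shares with RIS replicate 1 left out are again not read. Without the correction for distance the direction of the median turned (-0.01, with -0.04 over all windows), and 1.45% of A sides rose against 5.06% of all windows. Where a run had exactly 5 bins, the same window can be a side of both its edges. The A and B sides counted are thus not all distinct.

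Contact within the B side changed more often, at 362 of 554 B sides (65.3%; background 53.2%). It rose at 228 (41.2%; background 25.8%) and fell at 134 (24.2%; background 27.4%), and the median change was 0.04. Its median level was 0.02, 0.02 and 0.03 in growing cells and 0.05 and 0.08 in RIS. The direction of the B-side median was not stable: it was -0.01 at edges with both runs of at least 10 bins and -0.03 without the correction for distance, and with a window of 360 kb it was 0.004. The share of B sides with a rise was 23.8% (background 25.8%), 13.7% (background 5.06%) and 27.4% (background 20.6%) under these settings.

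In the average over all 569 edges, split by distance, the groups overlapped across the edge. Within the A side RIS was higher at each distance, and within the B side the groups overlapped between bins 80 to 200 kb apart (-0.04, -0.06 and -0.03 against -0.04 and -0.03) and differed at longer distances. This average pools the 190 edges at which contact across fell with the 114 at which it rose. Between bins 240 to 560 kb apart, contact within the A side was 0.35, 0.36 and 0.35 (log2 observed over expected) in growing cells and 0.40 and 0.38 in RIS. Within the B side it was 0.14, 0.14 and 0.16 in growing cells and 0.21 and 0.24 in RIS. Across the edge it was -0.68, -0.68 and -0.68 in growing cells and -0.67 and -0.69 in RIS, and the groups overlapped. Within the B side, contact between the first 120 kb and the bins 400 to 600 kb from the edge was 0.18, 0.18 and 0.20 in growing cells and 0.27 and 0.31 in RIS, both RIS values above the rest. For the same bins on the A side the values were 0.40, 0.42 and 0.42 against 0.46 and 0.45, and between B bins up to 200 kb apart beyond the first 120 kb the groups overlapped (-0.03, -0.05 and -0.03 against -0.03 and -0.03).

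**Figure D3:**
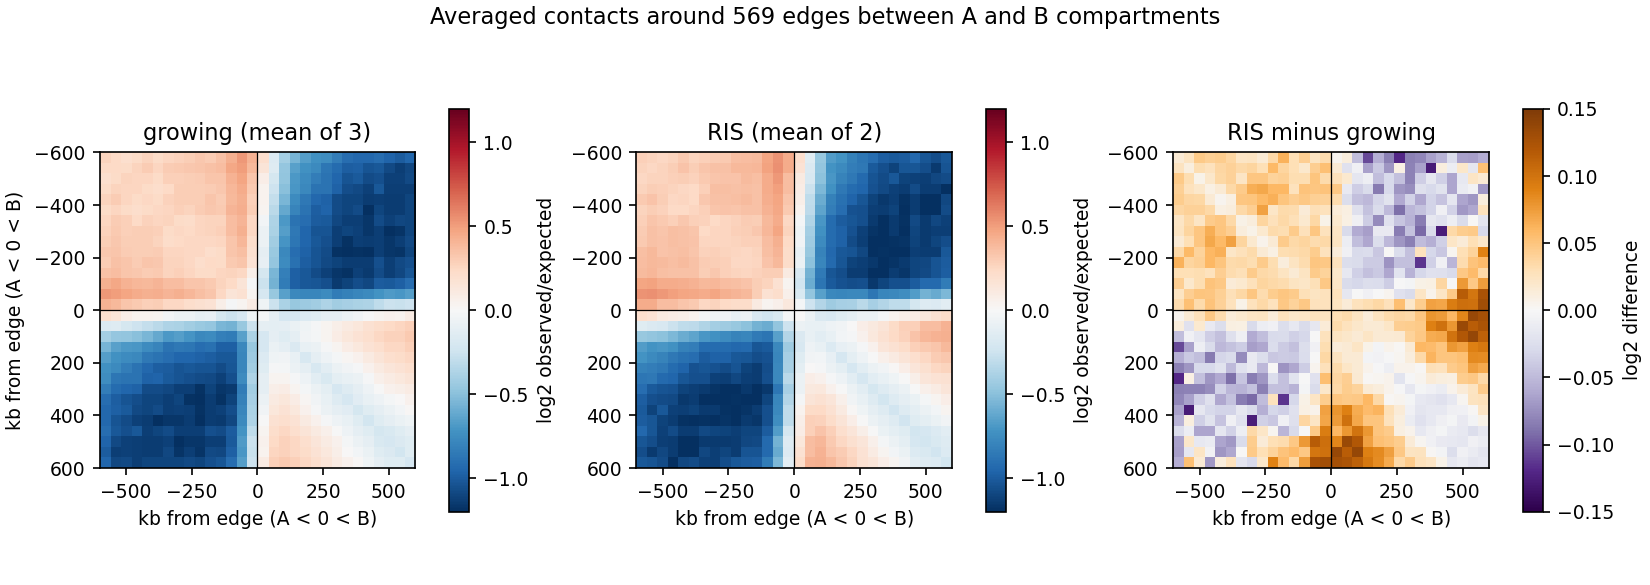
Mean observed over expected contact (log2) between 40 kb bins within 600 kb of the 569 edges, A side at negative distances on both axes, for the mean of 3 growing libraries, the mean of 2 RIS libraries and their difference (a narrower colour scale). Contact across the edge is depleted in both states, and in RIS contact is higher within A and between the first bins of B and the bins deeper in B.

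**Figure D4:**
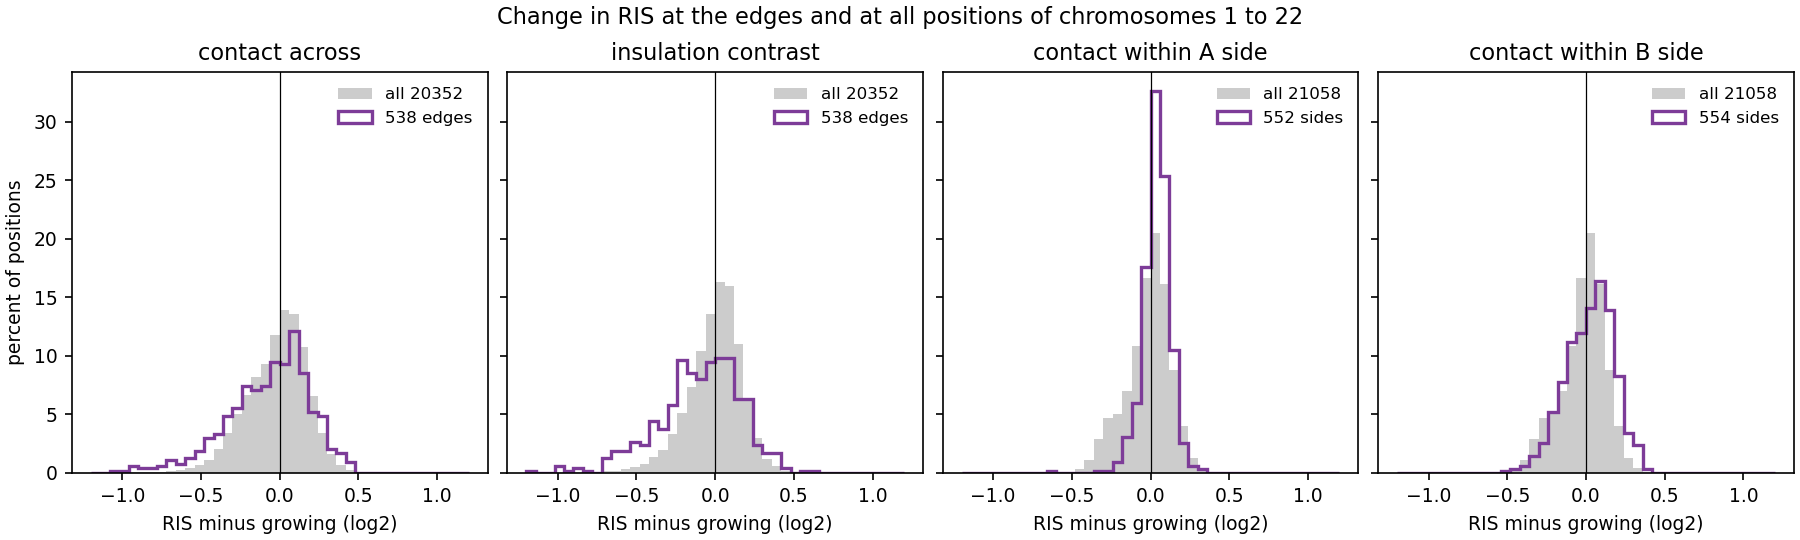
Distribution of the change RIS minus growing (log2) at the edges (purple line) and at all positions or windows of chromosomes 1 to 22 (grey), as percent of positions in bins of equal width, with values beyond the axis put in the last bin. The contrast of the edges has a longer tail to the left than that of all positions (median -0.07 against 0.02), and the A sides have a median of 0.04, with values on both sides of 0.

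Most edges kept their position in RIS. When the rule was applied to the mean of the 2 RIS libraries, which gave 555 edges, 325 of the 569 growing edges (57.1%) had a RIS edge of the same orientation at the same position, and 397 (69.8%) had one within 1 bin. As a baseline, edges called in 2 growing libraries and looked up in the growing library left out were found within 1 bin in 87.2% to 87.8%, and the same edges in single RIS libraries in 66.9% to 71.5%. Displacement had a direction: 77 edges had moved towards the B side and 17 towards the A side, while among growing libraries the numbers were 35 and 36, 23 and 26, and 38 and 25. At a further 126 edges the component still changed sign in RIS but with a run shorter than 5 bins, in 109 of them with more bins turned on the B side than on the A side, and at 24 edges no change of sign of this orientation remained within 600 kb, in 23 of them with B bins turned to A.

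This direction depends on where 0 lies. The share of A bins over the genome was 44.2% in growing cells and 50.1% in RIS. When the threshold in RIS was set to give the growing share of A bins, 44 edges had moved towards B and 58 towards A, and 74.9% were found within 1 bin. At the threshold of 0, the first bin on the B side of the edge was A in 34.5% and 30.3% of edges in RIS replicates 1 and 2, against 13.4% and 11.5% of all growing B bins. The first bin on the A side was B in 4.04% and 5.10% of edges, against 1.94% and 1.93% of all growing A bins. With the equal share of A bins the values were 14.6% for the first B bin (5.11% of all B bins) and 15.3% for the first A bin (6.49% of all A bins). Bins next to an edge lie nearest to the threshold by the rule itself, so these shares are a description.

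Insulation and position were read side by side, as a description, since both come from the RIS libraries. At the 309 tested edges with the same position in RIS, the median contrast was -1.34 in growing cells and -1.47 in RIS. It fell at 145 of them and rose at 30, with a median change of -0.14. The 74 tested edges that had moved towards B were less insulated in growing cells (-0.73) and had a median change of 0.03, with 17 falls and 20 rises. Edges left with a shorter run (118 tested) had a median change of 0.02, with 28 falls and 28 rises. The 20 tested edges with no sign change left had a growing contrast of -1.28 and a RIS contrast of -1.07, with a median change per edge of -0.05, 5 falls and 5 rises. In the classes moved towards B, left with a shorter run and with no sign change, the shares of falls and rises lie near those of all positions (20.3% and 23.6%), and nothing is read from them. The 17 edges that had moved towards A had a median change of -0.04, with 5 falls and 1 rise.

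The edges with the largest changes were named among those that passed the test and whose growing and RIS libraries did not overlap, so their values are a description. The largest fall of contact across lay at chr7:66840000, with no protein-coding gene within 120 kb, where contact across was -1.81, -1.81 and -1.67 in growing cells and -2.94 and -2.71 in RIS. The change was -1.06 ± 0.09 (SE, adjusted p = 4.93e-06, limma), and the contrast changed by -1.18, the largest fall among the 538 edges, while contact within both sides rose (0.10 on the A side and 0.14 on the B side). The component kept its edge at the same place.

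At chr9:107520000, which lies in NIPSNAP3A with the cholesterol transporter gene ABCA1 and NIPSNAP3B on the A side and the olfactory receptor gene OR13D1 on the B side, contact across was -2.23, -2.37 and -2.19 in growing cells and -3.20 and -3.25 in RIS (change -0.96 ± 0.10, adjusted p = 1.00e-05, limma). At chr15:86400000, with KLHL25 and AKAP13, an anchoring protein for protein kinase A, on the A side, the values were -2.76, -2.85 and -2.67 against -3.72 and -3.71 (change -0.95 ± 0.12, adjusted p = 2.62e-05, limma). At both edges the 2 RIS libraries lay close together and far below the growing libraries, and contact within the A side rose by 0.09. Contact within the B side fell at the edge in NIPSNAP3A, by 0.11 (adjusted p = 0.0105, limma).

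At chr17:49320000, within MBTD1 and beside the nucleoside diphosphate kinase genes NME1 and NME2, contact across was -2.18, -2.13 and -2.01 in growing cells and -3.10 and -3.02 in RIS (change -0.95, adjusted p = 7.77e-06, limma), with no change on either side that passed the test. At chr8:36720000, within the potassium channel gene KCNU1, it was -0.92, -0.90 and -0.81 against -1.93 and -1.70 (change -0.94, adjusted p = 2.72e-06, limma), and here contact within the B side fell too, by 0.25. At chr1:31200000, between LAPTM5, a lysosomal membrane protein of blood cells, and the cartilage matrix gene MATN1, the contrast was -2.40, -1.92 and -1.78 in growing cells and -3.13 and -2.90 in RIS (change -0.98 ± 0.14, adjusted p = 0.000156, limma). Growing replicate 1 lay between the other growing libraries and RIS there, and contact within the B side rose by 0.33. Of these 6 edges, 5 kept their position in RIS, and that within MBTD1 had moved towards A.

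The largest rises of contact across were smaller. At chr18:13200000, between the centrosomal gene CEP192 on the A side and LDLRAD4, an inhibitor of TGF-beta signalling, on the B side, contact across was -0.70, -0.53 and -0.52 in growing cells and -0.04 and -0.19 in RIS (change 0.47 ± 0.06, adjusted p = 3.80e-05, limma). Beside PRRX1, a homeobox gene of mesenchymal cells (chr1:170760000, A side), it was -0.17, -0.20 and -0.26 against 0.28 and 0.22 (change 0.46 ± 0.04, adjusted p = 5.31e-06, limma). Contact across this edge was thus below the expected contact in every growing library and above it in both RIS libraries, and contact within both sides fell.

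Beside the homeobox gene MEIS1 (chr2:66600000, A side) contact across was -0.83, -0.84 and -0.79 in growing cells and -0.31 and -0.43 in RIS (change 0.45, adjusted p = 1.68e-05, limma), with the edge at the same position. Beside the deubiquitinase gene USP46 (chr4:53400000) it was 0.15, 0.16 and 0.16 against 0.64 and 0.53 (change 0.43, adjusted p = 5.01e-06, limma), and no change of sign remained in RIS. Contact across this edge was above the expected value already in growing cells. Within RNF165 (chr18:43920000) it was -0.50, -0.36 and -0.57 against 0.04 and -0.15 (change 0.42, adjusted p = 0.000131, limma).

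The largest rise of the contrast lay at chr12:66600000, within IRAK3, which restrains Toll-like receptor signalling. HMGA2, an architectural chromatin protein found in the heterochromatin foci of senescent cells, lies 240 kb into its A side. The paper had already singled out the HMGA2 locus for reduced contacts in these Hi-C libraries, so this edge is not an independent case. The contrast was -1.98, -2.02 and -1.89 in growing cells and -1.26 and -1.41 in RIS (change 0.63 ± 0.07, adjusted p = 2.92e-05, limma). On the A side contact within 600 kb was 0.19, 0.26 and 0.31 in growing cells and -0.40 and -0.35 in RIS, a fall by 0.62 (adjusted p = 1.05e-07, limma) and the largest on any of the 552 A sides. Contact within the B side fell by 0.14, contact across rose by 0.25, and the edge had moved towards B. At chr9:82320000, within the co-repressor gene TLE4, the contrast was 0.06, -0.05 and -0.05 in growing cells and 0.43 and 0.50 in RIS (change 0.48, adjusted p = 9.79e-06, limma), again with falls within both sides.

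**Figure D5:**
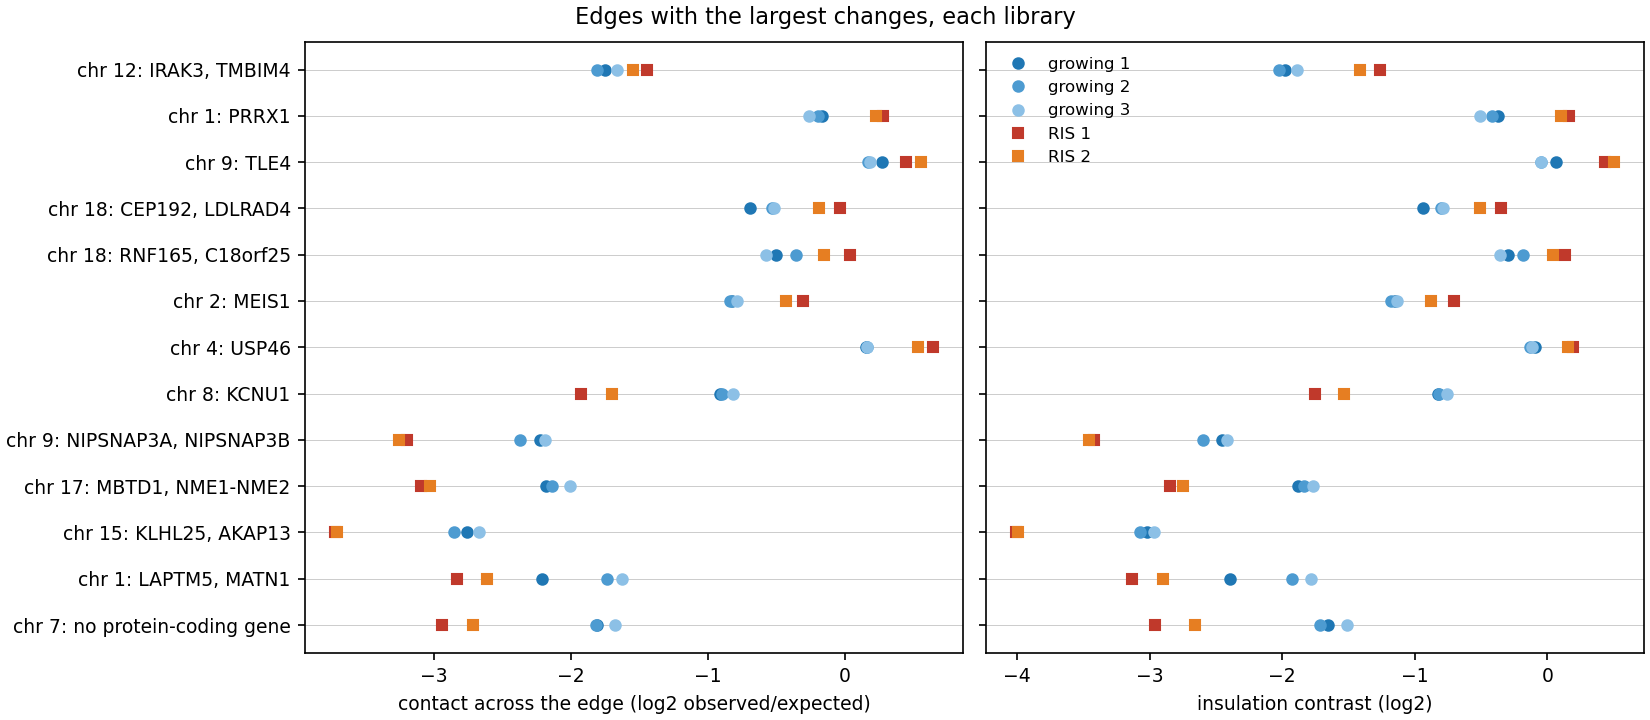
Contact across the edge (left, log2 observed over expected) and insulation contrast (right, log2) in each library at the 13 edges with the largest changes, labelled by chromosome and nearest protein-coding genes and ordered by the change of contrast. Circles are growing and squares RIS libraries. The rule that named them required groups that do not overlap. At the edge beside LAPTM5, replicate 1 is the growing library nearest to RIS.

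Edges near genes of the senescence programme were counted over 5 lists of genes, within 600 kb. Of 26 genes of the senescence-associated secretory phenotype (SASP), 5 lay near 4 edges. The contrast fell at all 4, with a median change of -0.29, where it fell at 37.2% of all edges tested and at 20.3% of all positions. With so few edges, enrichment was not tested, and none is read from this count. The paper had already singled out the NRG1 locus for its changed interactions in these Hi-C libraries. The fall at the NRG1 edge is therefore not an independent case. NRG1, which codes for a ligand of the ERBB receptors, spanned an edge (chr8:32040000), with its annotated start on the B side and its end on the A side. Contact across this edge was -0.58, -0.67 and -0.61 in growing cells and -0.80 and -0.92 in RIS (change -0.24 ± 0.05, adjusted p = 0.00182, limma), and contact within the B side rose by 0.14. Beside IGFBP7, a secreted binding protein of insulin-like growth factors 103 kb into the A side of chr4:58080000, the contrast was -1.33, -1.21 and -1.21 against -1.66 and -1.72 (change -0.44, adjusted p = 0.000133, limma). IL6 lay 206 kb into the A side of chr7:22560000 (contrast change -0.25, adjusted p = 0.00903, limma), and the growth factor genes AREG and EREG lay on the A side of one edge at chr4:75600000 (-0.29, adjusted p = 0.0016, limma).

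Among the genes of arrest and the cell cycle, the cyclin gene CCNA2 lay 218 kb into the A side of chr4:122520000, where the contrast was -0.51, -0.59 and -0.50 in growing cells and -0.32 and -0.37 in RIS (change 0.19, adjusted p = 0.00662, limma), a rise. The paper described a loop at CCNA2 with decreased contacts in RIS, a measure other than the contrast at this edge. Of 18 genes of the nuclear lamina and heterochromatin, 16 are on chromosomes 1 to 22 and 5 lay near 6 edges. The contrast rose at 1 of these edges (HMGA2) and fell at 2, on whose A sides lay SUZ12 (-0.53) and EED (-0.23). Both are subunits of the Polycomb complex that methylates histone H3, and neither lay within 120 kb of its edge. LBR, the lamin B receptor that tethers heterochromatin to the nuclear envelope, spanned the edge at chr1:225600000. There the contrast was -1.83, -1.70 and -1.88 in growing cells and -1.79 and -1.84 in RIS, overlapping, while contact within the B side rose by 0.19. At the edge 307 kb from the lamin gene LMNB1 (chr5:126480000) the contrast was 0.28, 0.38 and 0.34 against 0.39 and 0.39 and did not pass the test (adjusted p = 0.278, limma).

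Of 17 genes of chromosome architecture, 15 are on chromosomes 1 to 22 and 6 lay near 7 edges. Of these edges 6 were tested, with no rise of contrast and 2 falls. WAPL, which releases cohesin from DNA, spanned the edge at chr10:88200000, and the contrast there was -1.61, -1.45 and -1.45 in growing cells and -1.76 and -1.66 in RIS (change -0.21, adjusted p = 0.0266, limma). The other fall lay near the cohesin subunit gene SMC3 (-0.37). Beside RAD21, another cohesin subunit, 18 kb into the B side of chr8:117840000, the contrast was -0.62, -0.67 and -0.62 against -0.61 and -0.59, and beside the cohesin loader gene NIPBL, 37 kb into the A side of chr5:36840000, it was -0.94, -0.83 and -1.03 against -1.02 and -1.01. Neither passed the test. Of 18 genes of fibroblast matrix and identity, 6 lay near 6 edges, with 1 rise (PDGFRA, a receptor of platelet-derived growth factor, 0.15) and 1 fall (COL5A1, a chain of type V collagen, -0.24). At the COL5A1 edge the contrast was -1.21, -1.29 and -1.31 in growing cells and -1.32 and -1.71 in RIS, so that RIS replicate 1 lay beside the growing libraries and the fall rests on RIS replicate 2. Beside FN1, the fibronectin gene, 105 kb from chr2:216120000, the contrast was -1.67, -1.67 and -1.65 against -1.65 and -1.58, and beside SNAI2, 86 kb from chr8:49920000, it was -2.77, -2.71 and -2.44 against -2.71 and -2.78. These counts are to be read against the 37.2% and 15.6% of all edges, and the 20.3% and 23.6% of all positions, with a fall or rise.

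The capture Hi-C libraries, enriched for selected regions with RNA baits (2 growing and 2 RIS), had no part in choosing the edges and covered 5 of them with 200 kb on each side, in bins of 10 kb. The study calls them matching libraries, so they are not shown to come from other cells than the Hi-C libraries. With 2 libraries against 2 no test was made. Contact across the edge beside ANXA5 and CCNA2 was -0.01 and -0.03 in growing cells and 0.13 and 0.16 in RIS, and that near LMNB1 was 0.35 and 0.39 against 0.53 and 0.46. Both were higher in the 2 RIS libraries, and in Hi-C contact across both edges rose (0.28 and 0.10). At the edge within the motor protein gene MYO5B (chr18:47400000) the capture values were -1.60 and -1.48 against -1.82 and -1.73, lower in RIS, while contact across it in Hi-C, over 600 kb, rose by 0.16. At the edge within TGFB2, a transforming growth factor gene, the values were -1.21 and -1.30 against -1.30 and -1.28, and at that within SLC17A2 beside a histone gene cluster -0.56 and -0.61 against -0.58 and -0.52. At these 2 edges the libraries of the states overlapped. With 120 kb on each side the states overlapped at the edge beside ANXA5 and CCNA2 (change 0.02 in place of 0.17), both RIS libraries were lower at the edges within TGFB2 and SLC17A2 (-0.09 and -0.11), and the median change over the 5 edges turned from 0.04 to -0.09. The edge near LMNB1 stayed higher in RIS and that within MYO5B lower.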

How the data were processed

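The authors checked reads with FastQC, aligned them with HiC-Pro to hg19 and removed artefacts, and the deposited tables hold an ICE-balanced signal for each bin pair, with Hi-C bins of 40 kb and capture Hi-C bins of 10 kb. The 5 Hi-C tables share 1 total. Balancing equalises the coverage of bins, so total coverage cannot be compared between them. Dividing out the balancing factors gave whole contacts for 100% of the Hi-C values and so the depth, from 109967509 to 180775315 contacts per library. The tolerance was 0.05 of a whole number for small counts and grew with the count, so the largest values pass by the rule itself. Such counts give the counting error, not the full spread between libraries.

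Balanced contacts were divided by their mean at the same distance on the same chromosome, and bin pairs at least 80 kb apart were averaged in windows of 600 kb, with at least 80% of pairs kept in all 5 libraries. The log2 values were compared with limma 3.58.1 (R 4.3.3; lmFit, eBayes with trend) over all positions or windows of chromosomes 1 to 22, 3 growing against 2 RIS libraries, with Benjamini-Hochberg adjustment and a threshold of 0.05. The fit was tested on simulated data. Other steps used Python 3.11.15, numpy 2.4.6, scipy 1.17.1 and pandas 2.3.3. Genes came from GENCODE on GRCh37, whose chromosome lengths matched the bin list on all 22 chromosomes.

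The edges, lists and tests were chosen with earlier results of these data known. The edges named were the 5 largest rises and falls of contact across and the 3 of contrast, called and with libraries that do not overlap, with up to 3 protein-coding genes per side within 120 kb, and edges near genes of 5 lists (SASP, arrest and cell cycle, nuclear lamina and heterochromatin, chromosome architecture, fibroblast matrix and identity). Alternatives covered the expected value, windows, distances, runs, components, centring, filters, libraries left out, a replicate block and 2 classes of libraries, with few or many duplicate reads per the study's alignment summary. One gene of the arrest and cell cycle list is not reported here.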

Additional observations from a re-analysis of the deposited data

How the results depend on the processing

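The median change of the insulation contrast was below 0 under every alternative run: -0.048 within the libraries with few duplicates and -0.10 within those with many (growing replicate 3 against RIS replicate 2, no test), -0.033 for runs of at least 3 bins and -0.14 for at least 10, -0.14 for edges of the RIS mean and -0.12 for growing edges with a RIS edge within 1 bin. The last 2 sets were chosen with the RIS libraries, so here and below their values are a description. Without distance correction the median change of the contrast was -0.087, but all positions then had a median of -0.044. The share of edges whose contrast rose was 9.67% without distance correction (9.70% of all positions), 10.4% with runs of at least 10 bins (23.6%) and 9.40% for edges of the RIS mean, and 6.88% to 15.6% with 1 library left out.

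The median change of contact across was -0.054 with a window of 360 kb, -0.12 without distance correction (-0.10 over all positions), -0.013 with libraries centred on their median, -0.017 within the libraries with few duplicates and -0.059 within those with many, -0.0021 and -0.13 with runs of at least 3 and 10 bins, -0.11 for edges of the RIS mean, -0.10 for growing edges with a RIS edge within 1 bin, -0.040 with a centred component and -0.043 for edges chosen in growing replicate 2 and compared in the other 4 libraries. With 1 library left out it lay between -0.040 and -0.021. The share with a rise was 5.58% without distance correction, above the 4.09% of all positions and so the other way round from the 21.2% against 27.6% with it, 10.4% with runs of at least 10 bins, 12.97% for edges of the RIS mean, and 12.5% to 22.3% with 1 library left out.

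Without distance correction the median of the A sides turned to -0.014 and that of the B sides to -0.031, with -0.036 over all windows. Of A sides 7.43% were called and 1.45% were higher, and of B sides 13.7% were higher, against 33.9% called and 5.06% higher of all windows. The A-side median was 0.030 with runs of at least 3 bins and 0.045 for edges of the RIS mean, and with 1 library left out 29.0% to 42.8% of A sides were called and 23.01% to 33.7% rose. The B-side median was 0.0039 and the share of B sides with a rise 27.4% (20.6% of all windows) with a window of 360 kb. With runs of at least 10 bins these values were -0.012, a reversal, and 23.8% (25.8% of all windows). The B-side median was 0.049 with runs of at least 3 bins, 0.016 for edges of the RIS mean, 0.0093 for growing edges with a RIS edge within 1 bin, and 0.028, 0.024 and 0.048 for edges chosen in growing replicate 1, 2 and 3 and compared in the other 4 libraries. It lay between 0.023 and 0.055 with 1 library left out. The causes were not tested. The low ends of the shares given with 1 library left out came from the fit without RIS replicate 1. That fit held 1 RIS library, so nothing is read from these low ends.

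With the replicate number of the labels as a block, the B-side median was 0.048, and no other share or median moved beyond its limit. No RIS library has the number 3, so growing replicate 3 does not enter the change estimated in this fit. The deviations of same-numbered libraries from their group means correlated at 0.09 (growing and RIS replicate 1) and 0.06 (replicate 2) over 20352 contrasts. For contact across and within windows the values were 0.04 and 0.10 for replicate 1 but -0.19 and -0.18 for replicate 2, and growing replicate 3 with RIS replicate 2, the libraries with many duplicates, gave 0.16 and 0.21. With 2 RIS libraries their deviations are exact opposites, so a growing library has 1 value up to its sign. The labels do not say that a number marks a batch.

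The share of growing edges found in RIS within 1 bin was 74.9% at the threshold giving the growing share of A bins and 86.6% with any change of sign. The share of edges with an insulation minimum was 83.7% in growing cells and 83.5% in RIS at a depth of 0.2, against 39.6% and 42.8% of all positions. With a window of 280 kb it was 92.7% and 92.1%, against 63.7% and 66.5% of all positions. The capture Hi-C median over 5 edges turned to -0.090 with 120 kb on each side. The centred component, weights from the recovered contacts and the edges chosen in single growing libraries were added after seeing the data. Depth limits the edges with fewest contacts, and RIS replicate 1 had the lowest total.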
